A study of Mus musculus with 10 samples.

Results

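The T-box genes of the heart, Tbx1, Tbx2, Tbx3, Tbx5, Tbx18 and Tbx20, were followed in the right atria of mice in which Tbx5 was to be removed in adult life. The 6 genes were chosen by name and make up 6 of the 23337 genes in the count table, and 5 of them had reads. Right atrial RNA was sequenced from 4 mice labelled control (M1, M2, F1 and F2, for their labelled sex and number) and 6 mice labelled Tbx5 mutant (F1 to F3 and M1 to M3), each mouse giving 1 library. By the study's description the mutant mice carried Tbx5 fl/fl with R26CreERt2, a Cre recombinase that tamoxifen switches on and that the ubiquitous R26 promoter drives, so exon 3 of Tbx5 could be lost in any cell type. The study describes its controls as R26CreERt2 mice, which carry the same Cre without the floxed alleles, and the strain is given as mixed. Tamoxifen was given at 0.167 mg a day for 3 days and the tissue was taken 1 week later. The age is given as 8 to 10 weeks in one label and as 6 to 8 weeks in the protocol.

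T-box factors bind DNA through a domain that all of them share, and most act on overlapping target genes. In the heart Tbx5 and Tbx20 are known as activators of the working muscle program, acting with Nkx2-5 and Gata4, whereas Tbx2 and Tbx3 are repressors that keep chamber genes off in the conduction system and the atrioventricular canal. Tbx3 marks the sinoatrial node, Tbx18 is known from the epicardium, mural cells and the embryonic sinus horns, and Tbx1 acts in the embryonic second heart field.

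On the mouse build GRCm38, as annotated by GENCODE M21, Tbx3 (chr5:119670669-119684724) and Tbx5 (chr5:119832668-119885219) lie 147.9 kb apart on the forward strand. Tbx2 lies at chr11:85832551-85841948 on the forward strand, Tbx20 at chr9:24718138-24774303, Tbx18 at chr9:87702800-87731260 and Tbx1 at chr16:18580979-18590671, these last on the reverse strand. Exon 3 of Tbx5, by the numbering of its transcript of 3942 bases, is the exon at chr5:119838696-119838790. The mutant allele is labelled as lacking exon 3. This exon holds 95 bases, all of them coding, which is 2.41% of the transcript. The coding stretch of 60 bases that is most alike in the 6 genes, from the shared DNA-binding domain, is shown for 5 of them because it bears on whether reads of one gene could be counted for another. Capitals mark the 34 bases that are equal in all 6 genes.
Tbx1: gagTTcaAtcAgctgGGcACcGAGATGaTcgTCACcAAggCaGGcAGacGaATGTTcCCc
Tbx2: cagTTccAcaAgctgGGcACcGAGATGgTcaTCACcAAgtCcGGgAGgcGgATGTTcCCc
Tbx3: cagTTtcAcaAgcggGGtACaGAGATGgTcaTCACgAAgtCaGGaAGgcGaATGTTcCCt
Tbx18: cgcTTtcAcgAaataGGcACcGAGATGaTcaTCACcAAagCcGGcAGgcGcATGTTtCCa
Tbx20: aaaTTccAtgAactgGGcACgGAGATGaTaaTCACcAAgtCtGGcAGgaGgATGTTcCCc
Over the coding transcripts of the 6 genes, the longest identical run in any of the 15 pairs was 21 bases, and no stretch of 50 bases, a read length the labels give, was shared. No such stretch, read exactly, matched more than 1 of the 6 genes.

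The libraries held 5703775 to 7095141 counted reads. Of the 23337 genes, 13084 passed the filter on low counts and were tested, and a gene is called here when edgeR's quasi-likelihood test gave a Benjamini-Hochberg adjusted p under 0.05, the fold change was over 1.5 and the control mean of the deposited normalized signal was over 1. Under this rule 15.7% of the tested genes were called, 7.16% with the mutant group lower and 8.5% with it higher. Groups did not overlap for 11% of the tested genes with the mutant mice lower and for 11.7% with the mutant mice higher. Over all tested genes the log2 fold change had a median of -0.005. The 45S ribosomal transcript took 38.9% of the reads of mutant M3 and at most 1.49% in the others. The reads of Xist and Ddx3y went against the labelled sex of all 4 control mice, which bears on the comparisons by sex below. Of the atrial marker genes, Myl7, Sln and Nppa were called lower in the mutant group, Nppa with a call that single libraries could remove. Myl4 was lower without overlap, with a log2 fold change of -0.44 (adjusted p = 0.0217 by edgeR), under the 1.5-fold limit. The sum of the 4 atrial markers was 16499 to 31514 CPM in the mutant mice against 39387 to 44180 CPM in the control mice. CPM is the read count relative to the library size after TMM scaling (counts per 1e6).

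Of the 5 genes with reads, all 5 passed the filter, Tbx3 was called lower, Tbx5 was called higher, and Tbx2, Tbx18 and Tbx20 were not called. With so few genes, 1 in each direction is not read against the 15.7% of all genes. Tbx1 had no read in any of the 10 libraries. A count of 0 allows up to 3 reads, which is at most 0.817 CPM in a library, and this limit covers counting error only.

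**Figure D1:**
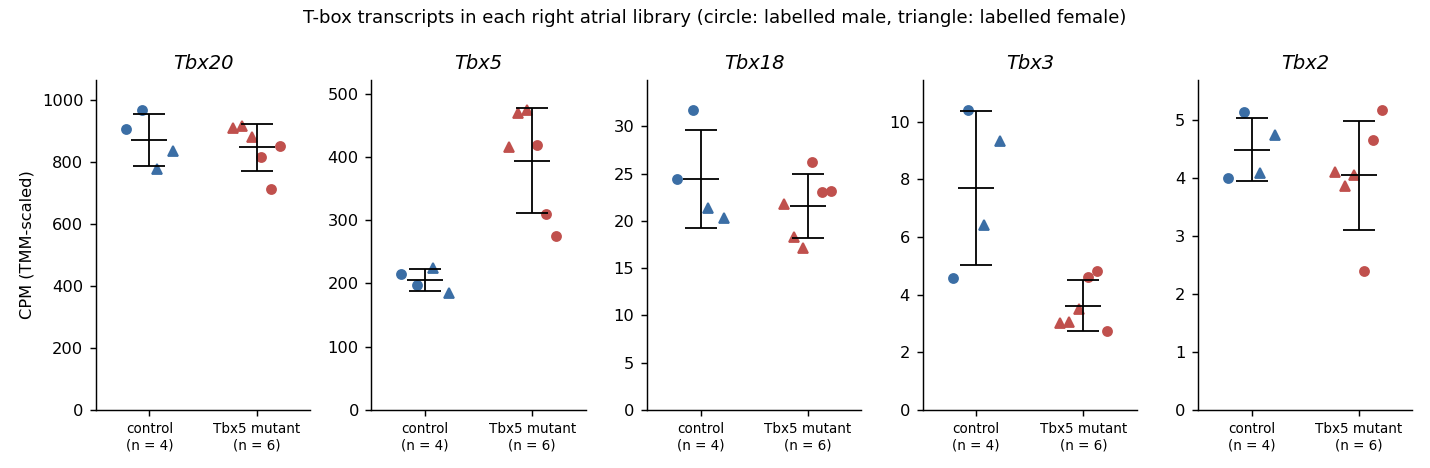
Each panel shows 1 T-box gene, with the TMM-scaled CPM of each library on a linear axis from 0, circles for mice labelled male, triangles for mice labelled female, and bars for the mean ± SD. The 6 mutant libraries lie above the 4 control libraries for Tbx5, lie mostly below them for Tbx3 and overlap them for Tbx20, Tbx18 and Tbx2.

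For Tbx5, the gene that was to be removed, the libraries labelled Tbx5 mutant held the larger share of reads. It was at 215, 198, 224 and 184 CPM in control M1, M2, F1 and F2. In the mutant mice it was at 415, 470 and 475 CPM in F1, F2 and F3 and at 419, 309 and 275 CPM in M1, M2 and M3. The groups did not overlap, and the 2 lowest mutant libraries were M3 and M2. The means were 205 ± 17.8 CPM (SD, n = 4) and 394 ± 83.3 CPM (SD, n = 6), a log2 fold change of 0.94 (SE 0.15, 95% interval 0.64 to 1.24, adjusted p = 0.000495 by edgeR's quasi-likelihood test). The spread over the mutant mice, a coefficient of variation of 21.2%, was far over the 2.17% that counting alone gives. A total over the whole gene does not check the allele, since reads of exon 3 were not counted apart. Whether the reads of the mutant mice came from transcripts with or without the exon was not tested, and the libraries are named by their labels throughout.

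Tbx3, the repressor that marks the sinoatrial node, was lower in the mice labelled Tbx5 mutant. The control libraries M1, M2, F1 and F2 held 32, 63, 41 and 69 reads of it, or 4.57, 10.4, 6.43 and 9.34 CPM. The mutant libraries F1, F2 and F3 held 3.00, 3.07 and 3.48 CPM, and M1, M2 and M3 held 4.63, 4.81 and 2.72 CPM, from 10 to 33 reads each. Control M1 lay below mutant M1 and M2, so the groups overlapped, while the other 3 control libraries lay above all 6 mutant libraries. The means were 7.69 ± 2.68 CPM (SD, n = 4) and 3.62 ± 0.888 CPM (SD, n = 6), which was 2.10-fold lower in the mutant mice. The log2 fold change was -1.07 (SE 0.25, 95% interval -1.55 to -0.59, adjusted p = 0.00518 by edgeR's quasi-likelihood test). The 2-sided exact permutation test over all 210 ways to draw 4 of 10 libraries gave p = 0.0286, which did not stay under 0.05 without control M2, F1 or F2, while the adjusted p of edgeR did without any 1 library (at most 0.0233). The coefficient of variation of Tbx3 in the control mice was 34.8%, the widest of the 5 genes, where counting alone gives 14.7%.

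The right atrium holds the sinoatrial node, and how much of it each dissection took is not in the labels. Hcn4, the pacemaker channel of the node, was at 2.00 CPM in control M1, the control library with the least Tbx3, and at 5.29, 10.8 and 10.8 CPM in control M2, F1 and F2. In the mutant mice Hcn4 was at 0.686 to 3.63 CPM, called lower with a log2 fold change of -1.88 (SE 0.44, adjusted p = 0.00592 by edgeR), and control M1 lay inside this range. Within the mutant group Hcn4 and Tbx3 did not keep the same order. Mutant M1 had the least Hcn4 with Tbx3 at 4.63 CPM, and mutant F1 the most Hcn4 with Tbx3 at 3.00 CPM. Mutant M2 and M3 went the other way, with Hcn4 at 2.33 and 1.09 CPM and Tbx3 at 4.81 and 2.72 CPM. Shox2, a factor of the node and sinus venosus, was at 0.429 to 3.31 CPM in the control mice and 0.343 to 3.47 CPM in the mutant mice, with control M1 again the lowest of its group. Vsnl1, a calcium sensor enriched in the node, was under the filter, at 1.43 to 3.25 CPM in the control and 0.133 to 0.836 CPM in the mutant mice. Isl1, a node and progenitor factor, had 0 to 6 reads in the control and 0 to 11 in the mutant libraries. The part of the amount of node tissue in the Tbx3 difference was not tested. In bulk tissue fewer cells of a type and less RNA per cell cannot be told apart.

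Tbx20, an activator of heart muscle genes, had the most reads of the family. It was at 905, 969, 777 and 836 CPM in control M1, M2, F1 and F2. The mutant libraries held 908, 917 and 879 CPM in F1 to F3 and 815, 713 and 853 CPM in M1 to M3. The ranges overlapped almost wholly, with only mutant M2 below the control range. The means were 872 ± 83.3 CPM (SD, n = 4) and 848 ± 76.0 CPM (SD, n = 6), and the log2 fold change was -0.04 (95% interval -0.25 to 0.17, adjusted p = 0.799 by edgeR). The interval leaves out any change of the size seen for Tbx3 or Tbx5. The sign turned to 0.22 (adjusted p = 0.0978) when a trend on transcript length was removed in each library, and Tbx20 has the longest transcript of the 6 genes.

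Tbx18, which marks epicardium and mural cells, was at 24.4, 31.8, 21.3 and 20.3 CPM in control M1, M2, F1 and F2. It was at 21.8, 18.3 and 17.1 CPM in mutant F1 to F3 and at 26.2, 23.0 and 23.1 CPM in mutant M1 to M3. Control M2 was the highest library, and the others of both groups lay together. The log2 fold change was -0.18 (SE 0.15, 95% interval -0.47 to 0.11, adjusted p = 0.368 by edgeR). Of the 8 epicardial and mesothelial markers in the table none was called, and their sum was 423 to 439 CPM in the control and 260 to 514 CPM in the mutant mice. Of 10 smooth muscle and pericyte markers, Acta2 and Tagln were called higher and none lower, with sums of 446 to 531 CPM and 497 to 976 CPM. Abcc9, a channel subunit of pericytes, was lower without overlap, with -0.58 (adjusted p = 0.000505 by edgeR), just under the 1.5-fold limit. The pericyte genes Rgs5 and Kcnj8 had -0.22 and -0.27 (adjusted p = 0.181 and 0.134), while Pdgfrb and Cspg4 had 0.41 and 0.51 (adjusted p = 0.0137 and 0.0149, all by edgeR).

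Tbx2, the other repressor, was at 4.001, 5.13, 4.08 and 4.74 CPM in control M1, M2, F1 and F2. The mutant libraries F1 to F3 held 4.10, 3.86 and 4.04 CPM, and M1 to M3 held 2.40, 4.66 and 5.17 CPM. Mutant M1 was the lowest and mutant M3 the highest of all 10. The log2 fold change was -0.16 (SE 0.21, 95% interval -0.56 to 0.24, adjusted p = 0.577 by edgeR). The libraries held 14 to 35 reads of Tbx2, and the coefficient of variation in the control mice, 12.1%, was under the 18.4% that counting gives.

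**Figure D2:**
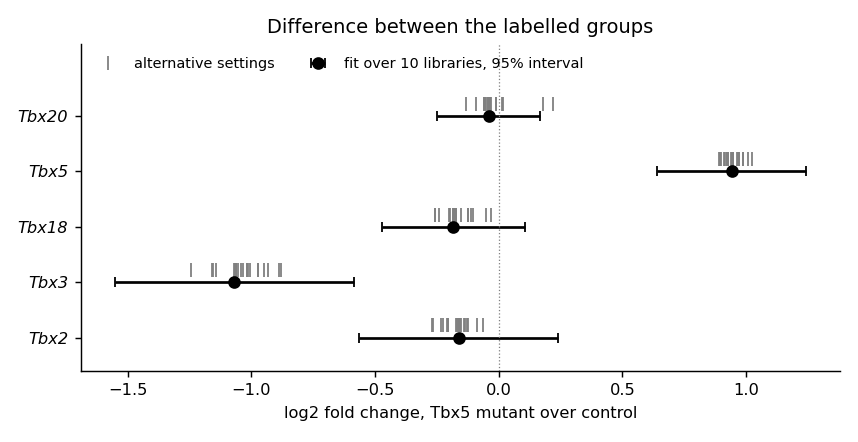
Points give the log2 fold change of Tbx5 mutant over control for each gene with its 95% interval, and grey ticks give the values under other scalings, filters, tests and covariates and with each library left out. The intervals of Tbx5 and Tbx3 stay away from 0, and the ticks of Tbx20 fall on both sides of it.

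Levels of different genes can be set side by side only per length, here as CPM per kb of the longest coding transcript. In the control mice Tbx20 stood first at 95.9 ± 9.16 CPM per kb (SD, n = 4), followed by Tbx5 at 52.1 ± 4.51, Tbx18 at 5.23 ± 1.11, Tbx3 at 1.54 ± 0.537 and Tbx2 at 1.24 ± 0.149 CPM per kb. In the mutant mice the order of the leading pair was turned, with Tbx5 at 99.9 ± 21.1 and Tbx20 at 93.2 ± 8.36 CPM per kb (SD, n = 6), and these ranges overlapped. Tbx18 came next at 4.61 ± 0.721 CPM per kb. At the low end Tbx2 came before Tbx3, at 1.11 ± 0.259 and 0.726 ± 0.178 CPM per kb. These levels hold no correction for the trend on transcript length in each library. With that correction the log2 fold change was 0.22 for Tbx20 and 0.97 for Tbx5. Whether the order of the leading pair is turned under it was not tested.

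Library by library, Tbx5 exceeded Tbx20 per kb in 0 of 4 control and 5 of 6 mutant libraries, the exception being mutant M3, while in mutant M2 both were at 78.4 CPM per kb. Tbx3 exceeded Tbx2 per kb in 3 of 4 control libraries and in 1 of 6 mutant libraries. With the merged exons of each gene as its length the first of these counts was the same, and the second was 2 of 4 and 1 of 6. The place of Tbx3 and Tbx2 in the control mice thus depends on the length used, and they did not differ beyond their spread. Of the summed level per kb of the 5 genes, Tbx5 made up 30.0% to 38.1% in the control and 40.9% to 54.1% in the mutant libraries, and Tbx20 57.3% to 63.8% and 43.5% to 55.0%.

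**Figure D3:**
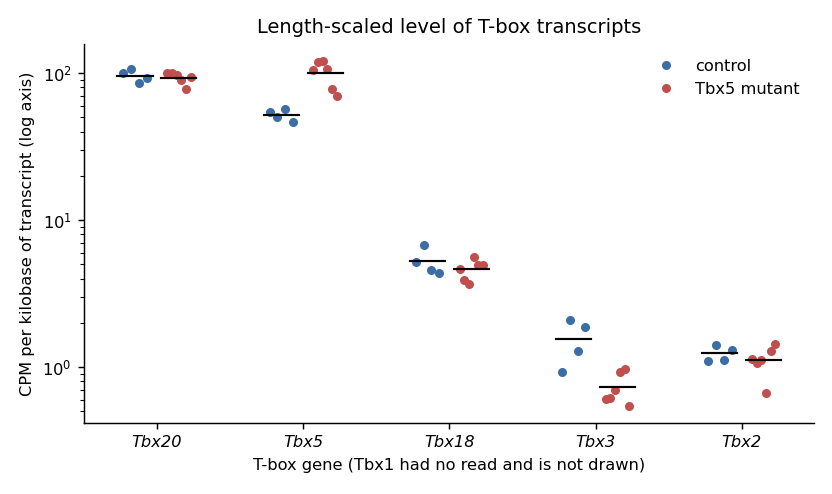
Each point is 1 library, with CPM per kb of the longest coding transcript on a log axis, blue for control and red for Tbx5 mutant, and short lines for the means. Tbx20 and Tbx5 lie well above the other 3 genes, and Tbx5 lies at the level of Tbx20 in the mutant libraries.

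A ratio of 2 genes within a library does not depend on how the libraries were scaled. All 10 pairs of the 5 genes were compared as log2 ratios of counts with a 2-sided exact permutation test, for which 0.00952 is the smallest p that 4 against 6 libraries allow, and with p adjusted over the 10 pairs. The pairs share genes and use the same counts as the tests of single genes, so they are not independent of those tests. The groups did not overlap for 3 pairs, each of which holds Tbx5. The ratio of Tbx3 to Tbx5 was -5.53, -4.23, -5.11 and -4.29 in control M1, M2, F1 and F2, and -7.08, -7.23 and -7.06 in mutant F1 to F3 and -6.48, -5.99 and -6.59 in mutant M1 to M3. It was lower in 6 of 6 mutant libraries, with a difference of -1.94 between the means (exact p = 0.00952, adjusted p = 0.0317).

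Tbx5 against Tbx20 was between -2.29 and -1.79 in the control and between -1.63 and -0.89 in the mutant libraries, a difference of 0.96 (exact p = 0.00952, adjusted p = 0.0317). Tbx5 against Tbx18 ran from 2.63 to 3.39 in the control and from 3.56 to 4.79 in the mutant libraries, a difference of 1.09 with the same p values. Tbx3 was lower also against Tbx20 and Tbx18, which were not called, though these pairs rest on the same counts of Tbx3 as its own test. The difference was -0.99 for Tbx3 over Tbx20 and -0.86 for Tbx3 over Tbx18 (each exact p = 0.0286, adjusted p = 0.0476), with overlapping groups.

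Tbx2 over Tbx5 differed by -1.09 (exact p = 0.0286, adjusted p = 0.0476). Tbx2 over Tbx3, the balance of the repressors, was on average -0.70 ± 0.38 in the control and 0.15 ± 0.61 in the mutant libraries, and missed the threshold (exact p = 0.0381, adjusted p = 0.0544), which it passed only without mutant M1 (adjusted p = 0.0397). The 3 pairs made of Tbx2, Tbx18 and Tbx20 differed by -0.13 to -0.003 (lowest exact p = 0.4). Without 1 library the smaller design gave 0 to 5 pairs under an adjusted p of 0.05 in place of 6, and the direction held in each case for the 6 pairs.

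**Figure D4:**
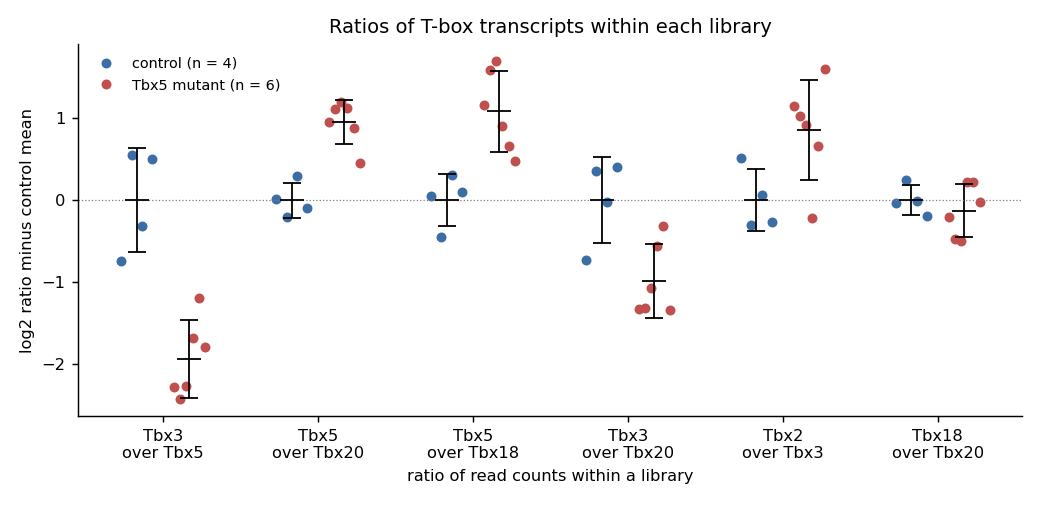
Each point is the log2 ratio of the read counts of 2 T-box genes in 1 library, less the control mean of that ratio, with bars for the mean ± SD, blue for control and red for Tbx5 mutant. Tbx3 over Tbx5 lies lower, and Tbx5 over Tbx20 and over Tbx18 higher, in all 6 mutant libraries, and Tbx18 over Tbx20 overlaps.

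Both groups hold mice labelled male and female, so the genotype difference was also taken within each labelled sex and, because of Xist and Ddx3y, with the sex labels of the control mice exchanged. Each of these sets held 2 control and 3 mutant libraries. Groups this small can easily part by chance, and the share of all genes that did not overlap in such a set was not counted. For Tbx5, whose groups did not overlap as a whole, the log2 fold change was 0.70 (adjusted p = 0.0549) in mice labelled male and 1.15 (adjusted p = 0.000256) in mice labelled female, and 0.73 and 1.14 with exchanged labels (adjusted p = 0.0490 and 0.000232, all by edgeR). Tbx3 overlapped between the groups in the mice labelled male, with a log2 fold change of -0.83 (adjusted p = 0.196), and did not overlap in the mice labelled female, with -1.31 (adjusted p = 0.00549). With exchanged labels Tbx3 was lower without overlap in both sexes, by 0.90 in males (adjusted p = 0.0878) and by 1.21 in females (adjusted p = 0.0347).

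The difference between the sexes was itself tested as an interaction in edgeR, which passed an adjusted p of 0.05 for 0.29% of all genes and for none of the 5 T-box genes, by edgeR or limma or with exchanged labels. At an unadjusted p under 0.05 there was 1 of the 5 with the labels as given, Tbx20 by edgeR and by limma (interaction -0.40 by edgeR, adjusted p = 0.463), and 1 with exchanged labels, Tbx18 by edgeR (interaction 0.78, adjusted p = 0.314). Under the exchanged labels, in sets of 2 control and 3 mutant libraries, Tbx18 was lower without overlap in the female mice and higher without overlap in the male mice. Its log2 fold changes were -0.56 (adjusted p = 0.0346) and 0.23 (adjusted p = 0.341, both by edgeR). Tbx20 showed a like crossing only under the labels as given, with -0.24 in males (adjusted p = 0.352) and 0.16 in females (adjusted p = 0.305, both by edgeR). With exchanged labels the groups of Tbx20 overlapped in both sexes, with -0.009 in males and -0.055 in females. Its interaction was then 0.032 (adjusted p = 0.986 by edgeR). The reads of Xist (10149 and 7850 in control M1 and M2, 5 and 14 in control F1 and F2) and of Ddx3y (0 in control M1 and M2, 1319 and 1124 in control F1 and F2) match the exchanged labels.

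Of the 11 other T-box genes in the table, 10 had a read in any library and 2, Mga and Tbx6, passed the filter. Mga, a large protein that joins a T-box to a Max-binding domain, was at 305, 272, 276 and 233 CPM in control M1, M2, F1 and F2, and at 123 to 250 CPM in the mutant mice. Its log2 fold change of -0.58 (SE 0.17, adjusted p = 0.0195 by edgeR) lay just under the 1.5-fold limit, and it is not called, although it was called with limma. Tbx6, a factor of the embryonic mesoderm, was at 2.21 ± 0.746 CPM (SD, n = 4) and 1.42 ± 0.686 CPM (SD, n = 6), with a log2 fold change of -0.65 (adjusted p = 0.186 by edgeR). Tbx10 had 4 to 6 reads in the control and 1 to 3 in the mutant libraries, and Tbx15 had 1 to 2 and 0 to 6. T, Tbx4, Tbx21, Tbx22, Tbr1 and Eomes had at most 3 reads in a library, and Tbx19 had none.

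The list of 23 genes downstream of cardiac T-box factors holds chamber genes that Tbx5 activates and Tbx2 and Tbx3 repress, and genes of the conduction system. Of 21 tested, 10 were called lower and 4 higher, or 66.7% against 15.7% of all tested genes, with a median log2 fold change of -0.37 against -0.005. The groups did not overlap for 7 genes with the mutant mice lower and 4 with the mutant mice higher. The list was chosen with results of these mice known, so it is no independent evidence of direction.

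The largest fall of this list was that of Gja5, the fast connexin of atrium and conduction system, from 220 ± 34.4 CPM (SD, n = 4) to 11.3 ± 3.37 CPM (SD, n = 6), a log2 fold change of -4.31. Gja1, the connexin of working muscle, had -2.27. Cacna2d2, a calcium channel subunit, had -2.65, and Ryr2 and Atp2a2, which release and take up calcium, -1.65 and -1.04. Nppa, the atrial natriuretic peptide, had -0.65 and Bmp10, an atrial ligand, -0.64. Hcn4 and Cacna1d, channels of pacemaker cells, were called lower, with -1.88 and -0.66.

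Among the genes that rose was Gjc1, the slow connexin of the nodes, from 19.8 ± 2.53 CPM (SD, n = 4) to 39.5 ± 4.79 CPM (SD, n = 6), with a log2 fold change of 0.99. Nppb, the B-type natriuretic peptide, rose by 1.38, Pln, the inhibitor of the calcium pump, by 0.95, and Cited1, a transcriptional co-regulator, by 0.91. Smpx, a small muscle protein, and Kcnj2, a potassium channel, were not called, nor were Cacna1g, Shox2 and Smoc2. Rgs6 was not called either, with -0.37 (adjusted p = 0.0256 by edgeR), under the 1.5-fold limit. The call for Nppa was lost without 1 library in 8 of 10 cases, other than mutant F3 and M3, and with upper-quartile scaling, quantile normalization, limma or no filter. Those for Bmp10 (without control M1, mutant M1 or mutant M2) and Cacna1d (without control F1 or mutant M2) were lost in some cases, and both were lost with the transcript length correction.

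**Figure D5:**
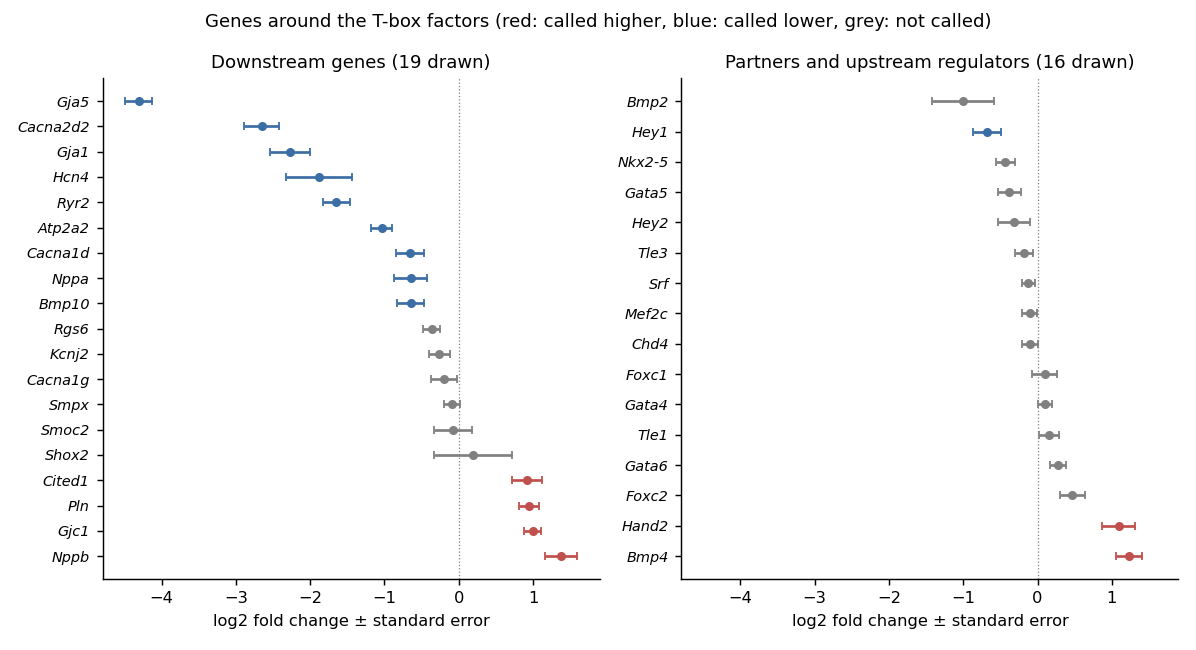
Points give the log2 fold change of Tbx5 mutant over control with its standard error for tested genes, for genes downstream of T-box factors (left) and for partners and upstream regulators (right), red for called higher, blue for called lower and grey for not called. Gja5 lies lowest at -4.31, and 13 of the 16 partners and regulators are grey.

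Of the 22 partners and upstream regulators of T-box factors 16 were tested, 1 was called lower and 2 higher, or 18.8% against 15.7% of all tested genes, with a median log2 fold change of -0.11. Hand2, a basic helix-loop-helix factor of the heart, rose from 15.3 ± 5.38 CPM (SD, n = 4) to 32.5 ± 8.09 CPM (SD, n = 6), a log2 fold change of 1.09 (adjusted p = 0.00235 by edgeR). Bmp4, a ligand known to act upstream of Tbx2 and Tbx3, rose from 9.41 ± 2.87 to 22.2 ± 2.74 CPM, with 1.23 (adjusted p = 0.000168 by edgeR). Bmp2, the ligand of the atrioventricular canal, was at 3.11 ± 1.36 and 1.53 ± 0.812 CPM and was not called (adjusted p = 0.0808 by edgeR). It was called without control M1 or mutant F3, and with the labelled sex and number as a block, with or without the length correction. Hey1, a Notch target that limits Tbx2 in the chambers, fell by 0.68 on the log2 scale (adjusted p = 0.0149 by edgeR), a call lost without control M2.

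The DNA partners Gata4, Gata6, Mef2c, Srf and the chromatin remodeller Chd4 were not called. Nkx2-5, a partner of Tbx5, Tbx20 and Tbx3, had a log2 fold change of -0.43 (adjusted p = 0.0204 by edgeR), and Foxc2 had 0.47 (adjusted p = 0.0445 by edgeR), both under the 1.5-fold limit, although Nkx2-5 was called with the transcript length correction. Isl1, Hand1, Sall4, Msx1 and Msx2 had too few reads to be tested, with at most 11 in a library.

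The protein-coding genes next to the T-box genes were also examined. Rbm19, a ribosome assembly factor 231.2 kb past Tbx5, was at 40.6, 41.9, 43.9 and 48.7 CPM in control M1, M2, F1 and F2 and at 17.2 to 21.3 CPM in the mutant mice. The groups did not overlap, and it was called lower with a log2 fold change of -1.19 (SE 0.09, adjusted p = 1.2e-06 by edgeR). Thus on chromosome 5 Tbx3 and Rbm19 were lower and Tbx5, which lies between them, was higher. Med13l, a Mediator subunit 905.2 kb before Tbx3, had -0.23 (adjusted p = 0.135 by edgeR).

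Nt5e, the ecto-enzyme that makes adenosine, 595.9 kb from Tbx18, was called higher with 0.70 (adjusted p = 0.00354 by edgeR) and groups that did not overlap. Bcas3, 6.5 kb before Tbx2, had -0.36 (adjusted p = 0.0217 by edgeR), under the 1.5-fold limit. Gnb1l, 14.3 kb from the unexpressed Tbx1, was at 3.70 ± 0.507 and 3.74 ± 0.954 CPM. Gp1bb and Dpy19l2, beside Tbx1 and Tbx20, were not tested. The annotation has an antisense gene, Tbx3os1, that overlaps Tbx3, and D030062O11Rik overlaps Tbx18 on the other strand. Neither was counted as a gene in the table, and the strand setting of the counting is not given in the sources used here, so reads from them cannot be told apart from reads of Tbx3 and Tbx18.

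After the group means were taken away, the correlation of log2 CPM between the T-box genes over the 10 libraries ran from -0.58 for Tbx2 with Tbx5 to 0.38 for Tbx5 with Tbx20, as a description over libraries in which all genes share the depth. The genes most like each T-box gene by this measure were Rpl13a for Tbx2 (r = 0.955), Cyth2 for Tbx3 (0.923), Pgrmc2 for Tbx5 (0.955), Pter for Tbx18 (0.970) and Zfp236 for Tbx20 (0.960). Each was the highest of 13084 genes over 10 libraries. The most opposed were Scn4a for Tbx2 (-0.958), 1700094D03Rik for Tbx3 (-0.923), Fcrls for Tbx5 (-0.967), Glul for Tbx18 (-0.955) and A230051G13Rik for Tbx20 (-0.973).

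The other cell type markers were measured beside these results. Of 5 cardiomyocyte markers, Tnnt2 was called higher without overlap, with a log2 fold change of 1.12 (adjusted p = 0.000872 by edgeR), and Actn2 was higher without overlap with 0.33 (adjusted p = 0.0263 by edgeR), under the 1.5-fold limit. Myh6 and Tnni3 had 0.10 and 0.03 and Ttn had -0.67 (adjusted p = 0.711, 0.868 and 0.146 by edgeR). The sum of the 5 was 93573 to 148776 CPM in the control and 62087 to 130478 CPM in the mutant mice. Of 6 endothelial and endocardial markers none was called. Of 4 fibroblast markers only Col1a1 was called, as higher. Pdgfra went the other way with -0.40 (adjusted p = 0.0152 by edgeR), under the 1.5-fold limit and with overlapping groups. Dcn and Tcf21 had -0.01 and 0.57 (adjusted p = 0.952 and 0.0618 by edgeR). The leukocyte markers Ptprc and Cd68 were both higher, with a sum of 18.8 to 27.1 CPM in the control and 37.3 to 53.9 CPM in the mutant mice. Myl2, a ventricular light chain, was called higher (log2 fold change 2.10). Its groups overlapped, at 12 to 49 reads in the control and 38 to 242 in the mutant libraries. The ventricular marker Myh7 was not called (0.92, adjusted p = 0.208 by edgeR), and the ventricular factor Irx4 had at most 1 read in a library. Among the lymphatic markers only Prox1 was called, as lower (log2 fold change -1.16). Lyve1, Flt4 and Pdpn had -0.11, 0.001 and 0.39 (adjusted p = 0.738, 0.995 and 0.0650 by edgeR), Reln was not tested, and Ccl21a was at 0. Adipocyte markers summed to 0.470 to 4.96 CPM in the control and up to 22.3 CPM in the mutant mice. Markers of skeletal muscle (Myod1, Myf6 and Pax7 at 0), lung and lymphocytes summed to at most 1.99 CPM in any library. The part of these cells in the levels of the T-box genes was not tested.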

How the data were processed

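Right atrial RNA of 10 mice was sequenced on an Illumina HiSeq2500. The authors deposited 1 table with the read counts per gene of each library, which were used for every test, and a normalized signal per library, used only for the threshold on the control mean. The submitters' notes name TopHat2 2.0.11, featureCounts, DESeq2, FastQC and the build mm10, with no order. The protocol text names more than one library kit, and strand and treatment of multi-mapped reads are not given in the sources used here. Gene positions and sequences came from GENCODE M21 on GRCm38.

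Counts were filtered with filterByExpr, scaled by TMM and fitted over all 13084 genes with edgeR 4.0.16 (quasi-likelihood, R 4.3.3), all 10 libraries and no covariate. Thresholds were those of the study. Its text gives them for coding genes of left atria tested with DESeq, whereas these libraries are right atrial and were tested with edgeR. On simulated counts for 12953 genes, edgeR recovered 187 of 200 genes changed 2-fold, with 2 other calls. The simulation gave every gene the same dispersion and held no library like mutant M3. It checks that the fit runs as intended, and does not give the recovery for genes that vary as widely as Tbx3. Alternatives used DESeq2 1.42.0, limma 3.58.1, other scalings, filters, covariates and single libraries left out. Mice are separate animals by their titles. Same-numbered mice did not deviate together (mean correlation 0.00256 over 4 pairs). So few pairs cannot settle whether the numbers pair the mice, and by Xist and Ddx3y each pair joins opposite sexes. The main fit took the mice as unpaired. No 2 libraries of a group agreed within sampling noise. The sets by sex were added after the data were seen. The members, gene lists and tests were chosen with earlier results of these data known. Named genes were the members, the other T-box genes, the gene lists, the neighbours on the chromosome, cell type markers and the 3 most alike genes and 1 most opposed gene, of which the first and the most opposed are printed. The table also holds the result of the authors' own DESeq2 comparison of the groups, deposited as a log2 fold change, a linear fold ratio, a test score and a p-value per gene, none of which was used. Some genes of the lists and some sequences are counted above but not reported here by name.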

Additional observations from a re-analysis of the deposited data

Results flagged for a closer look

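Of 118 sets of values of 1 group, 2 held a library that stood far from the rest, while about 5.9 are expected, since chance gives about 1 in 20. Tbx2 over Tbx18 was -3.40 on the log2 scale in mutant M1, with the other mutant libraries between -2.39 and -2.07. That library had 14 reads of Tbx2. Gata5, a partner of Tbx5 that was not called, was at 12.1 CPM in control M2, with the other control libraries between 8.78 and 9.34 CPM.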

How the results depend on the processing

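Apart from the sets by sex, Tbx3 was lower in each of the 23 alternatives to the fit that could be made for it (log2 fold change -1.24 to -0.88, adjusted p 0.00112 to 0.0404) and Tbx5 higher in all 24 (0.89 to 1.02, 2.95e-08 to 0.00267). Tbx2 stayed between -0.27 and -0.064 and Tbx18 between -0.26 and -0.029, never past the threshold. Tbx20 turned to 0.22 with the transcript length correction, to 0.18 with the replicate block and that correction, and ran from -0.092 to 0.019 without single libraries (positive without control M2 or mutant M2). With the replicate block alone Tbx3 had -0.97 (adjusted p = 0.0261 by edgeR), Tbx5 had 0.96 and Tbx20 -0.058, and 1 member was called in each direction, 13 downstream genes and 4 partners. Mutant F3 and M3 have no control of the same number, so they add nothing to the group difference in such a fit. The other blocks join mice of opposite sex by Xist and Ddx3y. The block lost the call of Cacna1d and gained Bmp2, and with the length correction it lost Cacna1d and Cited1 and gained Bmp2 and Nkx2-5. By sex, which was tried after seeing the data, Tbx3 lost its call in males under both sets of labels and Tbx5 in mice labelled male, Tbx18 passed the threshold in females with exchanged labels, Tbx18 turned to 0.23 in males with exchanged labels and Tbx20 to 0.16 in mice labelled female.

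The number of members called lower was 0 with a mean count of at least 50, since Tbx3 is then not tested (nor are Hcn4 and Cited1), and the number called higher was 0 at a fold over 2, which also left 8 downstream genes. Mga was called, giving 1 other T-box gene in place of 0, with quantile normalization, limma, either sex covariate or no fold threshold, and in 3 of the fits without a library (range 0 to 1, without control F2, mutant F1 or mutant M1). Partners called were 5 with the replicate block and length correction and 5 with no fold threshold. Ratios past the threshold ran from 0 to 5 without single libraries, where fewer arrangements exist (5 without control M1, 4 without mutant M1 or M3, 0 without any other), and single members past an exact p of 0.05 from 1 to 2 (Tbx3 is lost without control M2, F1 or F2). Tbx2 over Tbx18 turned to 0.038 with a pseudocount of 5 and ran from -0.073 to 0.19 without single libraries. Depth limited Tbx2 and Tbx3, with 10 to 69 reads in a library, and the causes of these shifts were not tested beyond what is said.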
